A study of Mus musculus with 105 samples.

Results

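The 6 RNA sequencing libraries described here came from activated mouse CD4+ T cells in which transcription was stopped with triptolide for 3 h while translation was stopped with either cycloheximide (3 libraries) or harringtonine (3 libraries). They were taken by these labels from a series of 35 groups of 3 libraries that cover resting and activated T cells. The study used transcription and translation inhibitors to separate mRNA decay that needs translation from decay that does not, and the comparison asks whether the way in which translation is stopped matters for mRNA levels. The cells were primary CD4+ T cells of 6 week old female C57BL/6J mice, purified by negative selection from spleen and lymph nodes, and were activated with beads that carry antibodies to CD3 and CD28. Both groups received triptolide at 25 µM, with cycloheximide at 100 µg/ml in the first and harringtonine at 2 µg/ml in the second. Groups used beside them were activated cells with triptolide alone at 0 h, 1 h and 3 h, activated cells with triptolide and either translation inhibitor at 1 h, activated cells with DRB at 65 µM and either translation inhibitor at 3 h, and resting cells with triptolide and either translation inhibitor at 3 h. All of these cells are from unmodified mice, and every group compared here carries a transcription inhibitor. Replicates are numbered 2, 3 and 4 and are labelled biological, but nothing in the labels says which mouse a number stands for. The p-values therefore measure the spread between libraries of a group. In the tests of genes this spread was estimated over all 35 groups unless stated otherwise. These include untreated cells and cells with a translation inhibitor alone.

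Cycloheximide and harringtonine stop protein synthesis at different steps. Cycloheximide blocks the elongating ribosome, so ribosomes stay on the coding sequence, whereas harringtonine stops ribosomes that have just assembled at the start codon and lets those further along run off. Triptolide acts on a subunit of the general transcription factor TFIIH and removes RNA polymerase II, while DRB inhibits the kinase that releases paused polymerase. Many short-lived mRNAs, including those of the immediate early genes that T cells switch on after receptor signalling, carry AU-rich elements in the 3′ untranslated region (3′ UTR) that recruit deadenylases. Messages for secreted and membrane proteins are translated at the endoplasmic reticulum (ER), where a hydrophobic stretch near the start of the new protein brings the ribosome to the membrane.

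The 6 libraries held between 1489579 and 3932393 reads in exons of 22322 genes, against 6300 to 6479221 over the whole series. Between 84.82% and 93.53% of reads were left out of the exon counts, mostly because they aligned to more than 1 place. Levels below are in CPM, a gene's exon counts scaled to a common library total with TMM factors, and 10741 genes with enough counts were tested. Markers of CD4 T cells summed to 3260 to 4570 CPM with cycloheximide and 2260 to 3030 CPM with harringtonine, and 1 of the 10, the kinase gene Lck, was called higher with cycloheximide. Markers of the other cell types were low: CD8 T cell markers summed to at most 11.9 CPM, myeloid markers to at most 20.3 CPM and B cell markers to at most 271 CPM. Only 1 of 2 CD8 T cell, 3 of 9 myeloid and 3 of 6 B cell markers had enough counts to be tested. None of these was called, but they are too few to show that the groups did not differ in such cells. Dendritic cell, erythroid, NK cell and platelet markers summed to at most 9.83, 22.3, 2.12 and 43.4 CPM, and C1qa, Klra8 and Ppbp had no count. The B cell sum ranged from 56.4 to 174 CPM with cycloheximide and from 69.5 to 271 CPM with harringtonine, and its part in the results was not tested. In bulk RNA fewer cells of a type and less RNA per cell cannot be told apart. Exon counts per count of the ERCC spike-in RNAs were 13.8, 13.8 and 11.8 with cycloheximide and 11.6, 11.9 and 10.3 with harringtonine. The cycloheximide mean was 116% of the harringtonine mean, a difference that did not exceed the spread by an exact permutation test (two-sided p = 0.2, where 3 against 3 cannot go below 0.1). It was higher in all 3 same-numbered pairs, for which the exact paired permutation p was 0.25, the smallest that 3 pairs can give. Intron counts per exon count averaged 0.283 ± 0.0615 (SD, n = 3) with cycloheximide and 0.314 ± 0.0468 (SD, n = 3) with harringtonine (exact permutation p = 0.5, two-sided), and were lower with cycloheximide in all 3 pairs (exact paired permutation p = 0.25). Coding counts made up 0.679 and 0.682 of exon counts (exact permutation p = 0.8, two-sided).

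The levels of many mRNAs differed between the translation inhibitors. In the edgeR quasi-likelihood test with Benjamini-Hochberg adjustment, 364 genes (3.39% of those tested) were higher with cycloheximide than with harringtonine and 160 (1.49%) were lower, at an adjusted p below 0.05. Among the genes higher with cycloheximide the median log2 difference was 1.01. Among those lower it was −1.01, and over all genes it was −0.05. The largest rises named below were of mixed kinds, among them the ER genes Rpn1 and Emc6, the mitochondrial chaperone gene Hspa9 and the proteasome gene Psma5. The largest falls named below included mitochondrial ribosome genes, Tnf and immediate early genes. How many immediate early genes were called depended on the libraries fitted, as given below. With counts scaled to the spike-ins, so that values are changes per spike-in molecule, the median of all genes moved to 0.19. On that scale 337 genes were higher and 23 lower, a split of 93.6% against 69.5% higher among the called genes. The count of called genes depended on the fit: 1216 genes (749 higher, 467 lower) passed when the replicate number was a block, which included all 524 genes called without it. It was 208 (174 higher, 34 lower) when the 6 libraries were fitted alone. Without replicate 4 of the harringtonine group 273 genes were called (188 higher, 85 lower). The higher side also fell to 232 without harringtonine replicate 2 and to 239 without cycloheximide replicate 3. The lower side fell to 92 without harringtonine replicate 3, 88 without cycloheximide replicate 2 and 85 without cycloheximide replicate 4.

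**Figure D1:**
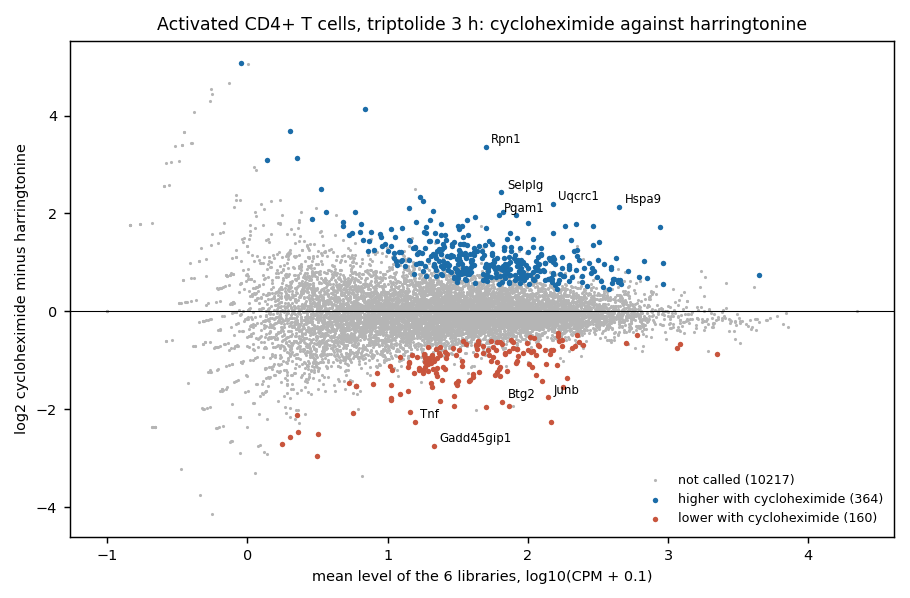
Each point is a gene, with its mean level in the 6 libraries on the x axis (log10 of CPM plus 0.1) and its log2 difference between cycloheximide and harringtonine on the y axis. Blue points are the 364 genes called higher with cycloheximide, red points the 160 called lower, and grey points were not called; Rpn1 stands highest among the named genes at 3.36.

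Rpn1, a subunit of the oligosaccharyltransferase that adds sugar chains to new proteins at the ER, had the largest difference of the genes named here. It (ENSMUSG00000030062.7, chr6:88084482-88105304, plus strand, mm10) stood at 78.9, 104 and 90.8 CPM with cycloheximide and at 7.87, 5.96 and 12.8 CPM with harringtonine, in replicates 2, 3 and 4. The groups were far apart, with a log2 difference of 3.36 ± 0.33 (SE, 10.3-fold, edgeR adjusted p = 2.57e-12). With triptolide alone at 3 h Rpn1 stood at 104.7, 130.4 and 142 CPM, above every library of both groups and farthest from the harringtonine libraries.

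Selplg, which encodes the P-selectin ligand of leukocytes (chr5:113818536-113832644, minus strand), stood at 81.9, 154 and 92.2 CPM with cycloheximide and at 19.01, 22.5 and 18.5 CPM with harringtonine. Its log2 difference was 2.44 ± 0.39 (SE, edgeR adjusted p = 5.34e-06). Other membrane and ER genes on the higher side were Vamp8, a SNARE of endosomal and granule fusion (2.25 ± 0.44, edgeR adjusted p = 0.000199), and Pld3, a lysosomal member of the phospholipase D family (1.97 ± 0.25). They also included Emc6, a subunit of the ER membrane protein complex (1.93 ± 0.27), and Ginm1, a membrane glycoprotein gene (2.11 ± 0.41). For Pld3 the cycloheximide libraries lay between 121 and 136 CPM and the harringtonine libraries between 32.7 and 34.4 CPM.

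To show how a hydrophobic start looks in the coding sequence, the first 40 codons (from the GENCODE annotation of mm10) are printed for 3 genes on the higher side and 1 on the lower side, Btg2, that carry one, and for Brk1, which does not. Capitals mark the 12 codons whose encoded residues form the most hydrophobic window, where its mean Kyte-Doolittle hydropathy is at least 2.0.
Rpn1 (chr6:88084531-88084650, plus strand): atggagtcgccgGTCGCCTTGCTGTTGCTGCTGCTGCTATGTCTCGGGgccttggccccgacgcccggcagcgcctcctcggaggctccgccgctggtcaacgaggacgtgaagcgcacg
Selplg (chr5:113820124-113820243, minus strand): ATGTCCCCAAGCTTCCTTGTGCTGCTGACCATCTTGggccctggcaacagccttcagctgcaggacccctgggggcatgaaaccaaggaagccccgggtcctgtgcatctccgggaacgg
Hspa5 (chr2:34772322-34772441, plus strand): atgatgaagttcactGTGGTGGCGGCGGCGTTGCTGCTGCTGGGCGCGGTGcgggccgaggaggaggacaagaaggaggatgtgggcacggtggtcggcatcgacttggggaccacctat
Brk1 (chr6:113604779-113604896 and chr6:113615776-113615777, plus strand): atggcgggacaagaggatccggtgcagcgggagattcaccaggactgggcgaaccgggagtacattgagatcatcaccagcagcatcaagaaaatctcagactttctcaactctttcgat
Btg2 (chr1:134078934-134079053, minus strand): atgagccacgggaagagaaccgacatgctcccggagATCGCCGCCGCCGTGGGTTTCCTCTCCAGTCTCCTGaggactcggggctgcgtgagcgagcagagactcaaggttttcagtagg
The window of Rpn1 averaged 3.21 on that scale, that of Hspa5 2.88, that of Btg2 2.19 and that of Selplg 2.06, and the most hydrophobic window of Brk1 averaged 0.67. Such a window was found in 3 of the 12 named genes on the higher side and in 2 of the 12 on the lower side. It is a description of the sequence, and whether it targets a protein to the ER was not tested.

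The remaining genes on the higher side encode proteins of mitochondria and the cytosol. Hspa9, the mitochondrial HSP70 chaperone (chr18:34937414-34954357, minus strand), was the most abundant, at 720.1, 671 and 794 CPM with cycloheximide and 138, 214 and 147 CPM with harringtonine (log2 difference 2.13 ± 0.25, edgeR adjusted p = 1.16e-09). Uqcrc1, a core subunit of respiratory complex III (chr9:108936633-108949623, plus strand), stood at 192, 355 and 192 CPM against 40.6, 72.2 and 46.9 CPM (2.20 ± 0.26, edgeR adjusted p = 1.16e-09). Replicate 3 held the highest Uqcrc1 level in both groups, and the groups did not overlap. Psma5, an alpha subunit of the proteasome core (chr3:108256926-108279974, plus strand), stood at 30.1, 34.6 and 19.8 CPM against 6.55, 5.30 and 4.26 CPM (2.34 ± 0.33, edgeR adjusted p = 2.37e-07). Pgam1, a glycolytic mutase, differed by 1.96 ± 0.22, Gnb2, a G protein beta subunit, by 2.04 ± 0.29, and Brk1, a small subunit of the WAVE complex that drives actin branching, by 1.87 ± 0.22. All 12 genes on the higher side were called under each of the 16 other settings that were run, the replicate block and spike-in scaling included. Gnb2 overlaps Epo on the same strand, so reads of the pair may not be separable.

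Gadd45gip1, a component of the mitochondrial ribosome, had the largest fall of the genes named here. Its level (ENSMUSG00000033751.5, chr8:84831522-84835482, plus strand) was 3.82, 7.70 and 5.42 CPM with cycloheximide and 28.8, 43.0 and 38.4 CPM with harringtonine. The log2 difference was −2.74 ± 0.43 (SE, 6.68-fold lower, edgeR adjusted p = 3.69e-06). In CPM the cycloheximide libraries were near triptolide alone at 3 h (4.03, 3.48 and 2.42 CPM), and the harringtonine libraries were near its level at 0 h (23.3, 55.1 and 46.6 CPM). That scale is relative: exon counts per ERCC count averaged 22.7 with triptolide alone at 0 h and 11.3 with harringtonine at 3 h. Per spike-in molecule Gadd45gip1 lay above triptolide alone at 3 h by 1.49 with cycloheximide and 3.98 with harringtonine (log2). Champ1, a chromosome alignment factor, Pdp1, a phosphatase that activates pyruvate dehydrogenase, Mrps18c, a mitochondrial ribosomal protein, and Ndufa11, a complex I subunit, were lower by −1.72 ± 0.33, −1.63 ± 0.28, −1.81 ± 0.38 and −1.83 ± 0.27.

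A different order held for Tnf and the immediate early genes, whose harringtonine levels in CPM were close to triptolide alone. Tnf, the inflammatory cytokine (chr17:35199381-35202007, minus strand), stood at 6.36, 3.85 and 5.42 CPM with cycloheximide, at 12.5, 25.8 and 39.1 CPM with harringtonine and at 15.5, 20.9 and 38.7 CPM with triptolide alone at 3 h. The difference between the inhibitors was −2.25 ± 0.38 (SE, edgeR adjusted p = 2.04e-05). Zfp36, which encodes a protein that binds AU-rich elements and hastens decay, stood at 4.24, 7.06 and 5.42 CPM against 7.87, 13.2 and 48.3 CPM (−2.06 ± 0.41, edgeR adjusted p = 0.000288). Its call rested on harringtonine replicate 4: without it the difference was −0.95 with an adjusted p of 0.381. On the lower side, Gadd45gip1, Tnf, Egr1, Btg2, Ndufa11 and Pdp1 kept their calls under all 16 settings. Junb lost its call without harringtonine replicate 4 (adjusted p = 0.307), without cycloheximide replicate 2 (0.145) and without cycloheximide replicate 4 (0.0921). Klf10 lost it without harringtonine replicate 4 (0.133) and without cycloheximide replicate 4 (0.0578), and Mrps18c without harringtonine replicate 3 (0.0855). Spike-in scaling ended the calls of Junb (0.15), Klf10 (0.0678) and Champ1 (0.0511). Fitting the 6 libraries alone ended those of Zfp36 (0.153), Junb (0.0981) and Klf10 (0.0656), and coding counts that of Klf10 (0.0832). Gadd45gip1, Ndufa11 and Junb overlap genes on the other strand, and whether counting used strand is not given in the sources used here.

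**Figure D2:**
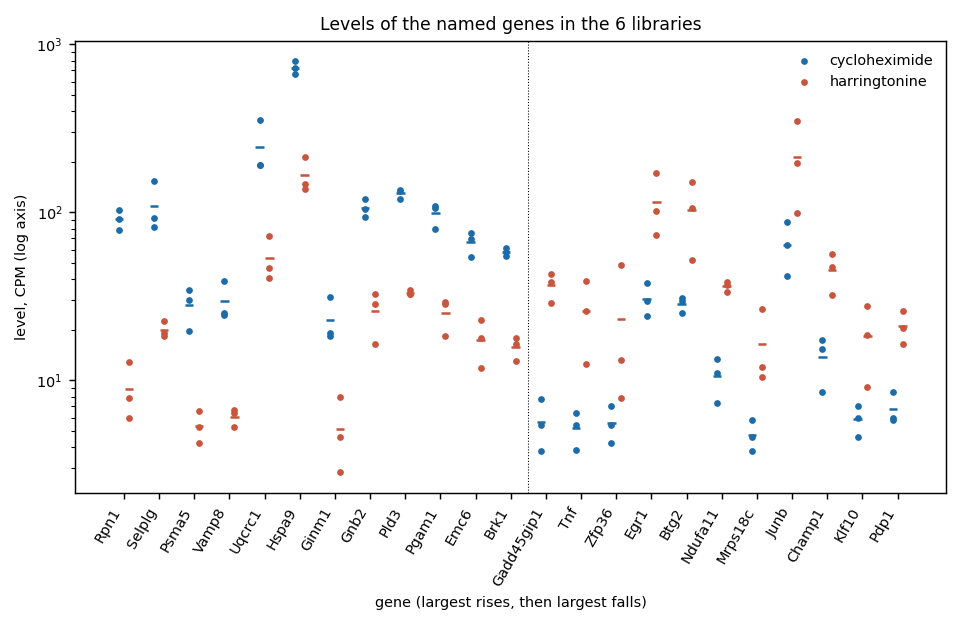
Each point is 1 library, with its CPM on a log axis, for the named genes with the largest rises (left of the dotted line) and those with the largest falls (right), and short bars mark group means. Cycloheximide (blue) and harringtonine (red) libraries do not overlap for any of these genes, which their selection rule requires, and the harringtonine libraries of Tnf, Zfp36, Egr1, Btg2, Junb and Klf10 are spread more widely than the cycloheximide libraries.

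Gene lists were described where at least 4 of their genes were called, which held for 16 of the 41 lists with at least 5 tested genes. In the other 25 lists between 0 and 3 genes were called, and their medians ran from −0.39 to 0.19. Counts are read against 3.39% called higher and 1.49% called lower over all genes, and medians against −0.05 in the TMM scale and 0.19 per spike-in molecule. Numbers of genes below 0 are read against 5914 of all 10741 genes in the TMM scale. The replicate block raised the calls over all 10741 genes from 364 higher and 160 lower to 749 and 467. List counts in that fit are read against these. The list counts grew by more than 1.5 times in chaperones (13 higher, 3 lower), synthetases (8 and 2), initiation factors (12 and 2) and proteasome subunits (7 and 7). They also grew in splicing regulators (8 and 0), complex I (0 and 7), complexes II to V (7 and 6) and mitochondrial ribosomal proteins (2 and 19). Ribosomal proteins (0 and 11), ribosome biogenesis (5 and 13), Zfp genes (1 and 13) and interferon genes (1 and 7) grew as well. With the 6 libraries fitted alone 208 of 8435 genes were called, against 524 of 10741 in the main fit. The list counts then shrank by more than 1.5 times in chaperones (6 called), initiation factors (3), proteasome subunits (4), mitochondrial ribosomal proteins (5) and complexes II to V (2). They also shrank in ER genes (2), immediate early genes (2), cholesterol synthesis (1) and interferon genes (2). No ribosomal protein gene and no Zfp gene was called in that fit.

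Of genes of the ER translocon and the oligosaccharyltransferase, 7 of 34 tested were higher and none lower (median 0.18, and 0.41 per spike-in molecule). After Rpn1 the smallest p belonged to Spcs2, a signal peptidase subunit, at 109 ± 6.73 CPM against 62.0 ± 17.7 CPM (SD, n = 3 each, log2 difference 0.82 ± 0.18 SE, edgeR adjusted p = 0.00131). Sec61a1, the channel of the translocon, was at 474 ± 45.1 CPM against 315 ± 32.2 CPM (0.59 ± 0.15, edgeR adjusted p = 0.0086). Rpn2, the other ribophorin, was at 315 ± 62.0 CPM against 276 ± 17.6 CPM and was not called (0.19 ± 0.18, edgeR adjusted p = 0.715). The number called higher fell to 4 without cycloheximide replicate 3, harringtonine replicate 2 or harringtonine replicate 4, and to 2 when the 6 libraries were fitted alone.

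Chaperone genes went both ways. Of 35 tested, 8 were higher and 2 lower (median 0.29). The ER members Hspa5, Hsp90b1, Pdia3, Pdia6 and Canx, the chaperonin subunits Tcp1 and Cct3 and mitochondrial Hspa9 rose, and the cytosolic Hspa8 and Dnajb1 fell. Hspa5, the ER chaperone BiP, stood at 448 ± 17.6 CPM with cycloheximide and at 134 ± 17.7 CPM with harringtonine (SD, n = 3 each), a log2 difference of 1.74 ± 0.23 (SE, edgeR adjusted p = 5.43e-08). Hspa8 stood at 1593 ± 241 CPM against 2899 ± 457 CPM (−0.86 ± 0.25, edgeR adjusted p = 0.0269). Per spike-in molecule 7 chaperone genes were higher and none lower. Hsp90ab1, at 1665 ± 299.8 CPM against 1560 ± 170.1 CPM, was not called (0.09 ± 0.19, edgeR adjusted p = 0.91). Between 5 and 10 chaperone genes were called when 1 library was left out, with 5 without harringtonine replicate 2 or 4 and 6 without cycloheximide replicate 4.

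Among translation genes, 5 of 23 aminoacyl-tRNA synthetase genes were higher and 1 lower (median 0.24). Hars stood at 71.2 ± 2.35 CPM against 27.7 ± 7.33 CPM (SD, n = 3 each, log2 difference 1.35 ± 0.21 SE, edgeR adjusted p = 2.6e-06). The lower gene was Aimp2, a scaffold of the synthetase complex rather than an enzyme (−1.50 ± 0.26, edgeR adjusted p = 2.8e-05). The count fell to 3 without harringtonine replicate 4 and with spike-in scaling. Of 35 initiation factor genes, 5 were higher and 1 lower (median 0.06). Eif4a1, the RNA helicase of cap-dependent initiation, stood at 904 ± 125 CPM against 439.9 ± 89.6 CPM (1.04 ± 0.23, edgeR adjusted p = 0.00133), and Eif1ax differed by 0.88 ± 0.15 (edgeR adjusted p = 1.1e-05). The initiation factor count was 3 without harringtonine replicate 2 or 4. Proteasome genes went both ways, with 6 of 34 higher and 3 lower (median 0.05). Psma5, Psmd1 (1.22 ± 0.20, edgeR adjusted p = 6.24e-06), Psmb8, Psma4, Psmd2 and Psmc1 rose, and Psma3, Psmd4 and Psma7 fell. Leaving out cycloheximide replicate 2 or harringtonine replicate 4 left 5 proteasome genes called, and with spike-in scaling 6 were higher and none lower.

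Smaller groups on the higher side were SR and hnRNP splicing regulators with 4 of 38, cholesterol synthesis with 4 of 29 and glycolysis with 4 of 24, and no gene of these lists was called lower. Among the splicing regulators Srsf5 differed by 1.11 ± 0.18 (edgeR adjusted p = 6.24e-06) and Hnrnpab by 1.23 ± 0.24 (edgeR adjusted p = 0.000209). In the cholesterol list the called genes included Insig1, which retains the regulator of this pathway in the ER (1.23 ± 0.24, edgeR adjusted p = 0.000264), and the enzymes Hmgcs1 and Cyp51. Without harringtonine replicate 2, 1 gene of that list was called, and with spike-in scaling 2 were. In glycolysis Ldha, the lactate dehydrogenase subunit, stood at 465 ± 56.2 CPM against 174 ± 26.8 CPM (1.42 ± 0.18, edgeR adjusted p = 5.86e-09). Pkm, the pyruvate kinase, stood at 1136 ± 336 CPM against 1212 ± 247 CPM and was not called.

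Of 77 nuclear genes for mitochondrial ribosomal proteins, 60 lay below 0, 12 were lower and 1 higher, with a median of −0.34 (−0.11 per spike-in molecule, where the median of all genes was 0.19 and 3 were lower and 2 higher). Mrpl35 stood at 10.9 ± 0.259 CPM with cycloheximide (SD, n = 3) and was higher with harringtonine (log2 difference −1.46 ± 0.27 SE, edgeR adjusted p = 0.000112). Mrpl3, the higher gene, stood at 75.8 ± 4.13 CPM against 34.1 ± 7.50 CPM (1.16 ± 0.18, edgeR adjusted p = 4.56e-06). The number of these genes called lower was 19 with the replicate block, with 2 higher, and 3 without harringtonine replicate 3, 5 without cycloheximide replicate 4 and 6 without cycloheximide replicate 2. In respiratory complex I, 4 of 37 nuclear subunits were lower and none higher (median −0.22 in the TMM scale and 0.05 per spike-in molecule), among them Ndufv2 (−1.47 ± 0.30, edgeR adjusted p = 0.00051). Complexes II to V had 2 of 40 higher, Uqcrc1 and Atp5o, and 2 lower, Sdhb and Cox5a (median −0.11, 0.14 per spike-in molecule). Without cycloheximide replicate 3 these had 2 higher and 5 lower. The 13 mitochondrially encoded mRNAs had a median of −0.39 and none was called.

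Of 82 cytosolic ribosomal protein genes, 81 lay below 0 in the TMM scale, with a median of −0.25, and 4 were called lower. Rpl36al had the largest difference of these (107 ± 48.6 CPM against 274 ± 102 CPM, −1.37 ± 0.28, edgeR adjusted p = 0.000616). Per spike-in molecule their median was 0.01, still under that of all genes, and 1 was called. The called number was 1 without cycloheximide replicate 4 or harringtonine replicate 4, and 2 without cycloheximide replicate 2 or harringtonine replicate 3. It was 1 without the filter on low counts and 0 in edgeR with the 6 libraries fitted alone (5 of 81 at an unadjusted p below 0.05), and DESeq2 called 3. Ribosomal protein genes have many processed copies in the genome, so their counts are uncertain. Ribosome biogenesis genes had 2 of 63 higher and 4 lower (median −0.24, 0.01 per spike-in molecule), with Wdr74 at −1.33 ± 0.22 (edgeR adjusted p = 1.15e-05) and Polr1e at 1.17 ± 0.21 (edgeR adjusted p = 4.94e-05). Numbered Zfp zinc finger genes had 1 of 277 higher and 7 lower (median −0.20, 0.04 per spike-in molecule), and 3 were called without cycloheximide replicate 2 and 5 without harringtonine replicate 3 or 4. Of the Zfp genes 2 were called with spike-in scaling, 4 without the filter or with coding counts and 6 by DESeq2. With the 6 libraries fitted alone edgeR called 0 (15 of 165 at an unadjusted p below 0.05). Interferon genes had 1 of 26 higher, Gbp3, and 3 lower, Ifi47, Irf1 and Ifi203 (median −0.24, 0.01 per spike-in molecule), with 2 called without harringtonine replicate 4. Ifi47 stood at 90.8 ± 11.52 CPM against 264 ± 9.24 CPM (−1.53 ± 0.25, edgeR adjusted p = 1.1e-05).

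**Figure D3:**
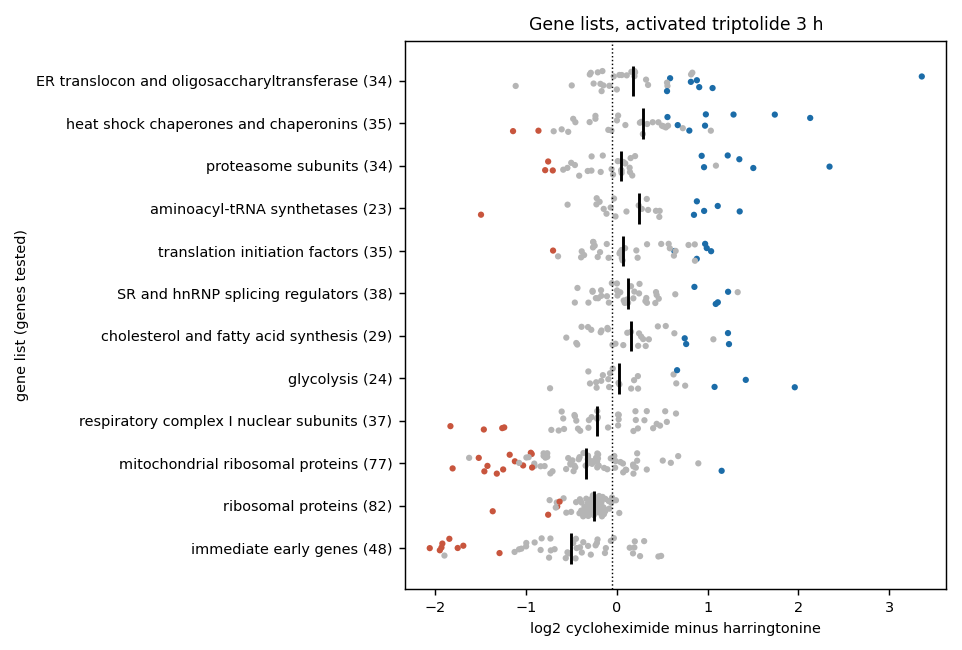
Each point is a tested gene of 12 of the described lists, placed by its log2 difference between cycloheximide and harringtonine in the TMM scale (blue called higher, red called lower, grey not called). Black bars are list medians and the dotted line is the median of all genes, −0.05; the median of the immediate early genes lies farthest to the left at −0.51 and that of the chaperones farthest to the right at 0.29.

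T cells typically induce immediate early genes without new protein synthesis, which was not tested for each member of the list. Btg2 is also in the list of naive homing and quiescence genes. Immediate early genes had the lowest median of the described lists, −0.51 (−0.23 per spike-in molecule). Of 48 tested, 40 lay below 0, and 8 were called lower and none higher. The 8 were Btg2, Egr1, Zfp36, Dusp2, Ier2, Junb, Klf10 and Ier5. Btg2, an anti-proliferative gene whose product binds the CCR4-NOT deadenylase (ENSMUSG00000020423.6, chr1:134075170-134079120, minus strand), stood at 25.0, 30.8 and 29.8 CPM with cycloheximide and at 51.8, 106 and 151 CPM with harringtonine (−1.85 ± 0.26, edgeR adjusted p = 1.86e-07). The transcription factor gene Egr1 (chr18:34859823-34864984, plus strand) stood at 29.7, 37.8 and 24.1 CPM against 73.4, 101 and 171 CPM (−1.93 ± 0.28, edgeR adjusted p = 3.7e-07). Junb, an AP-1 subunit (chr8:84974484-84978718, minus strand), stood at 41.6, 87.2 and 63.7 CPM against 99.6, 197 and 349 CPM (−1.75 ± 0.49, edgeR adjusted p = 0.0209). Replicate 4 was the highest harringtonine library for all of these genes and replicate 2 the lowest. The most abundant members, Nr4a3 at 1205 ± 586 CPM against 1262 ± 427 CPM and Fosl2 at 275 ± 48.9 CPM against 336 ± 140.1 CPM (SD, n = 3 each), were not called.

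Summed over the 8 called genes, which the calls chose, the levels were 155, 269 and 183 CPM with cycloheximide and 334, 617 and 1095 CPM with harringtonine, against 515, 844 and 863 CPM with triptolide alone at 3 h. Triptolide alone gave 1339, 1981 and 1456 CPM at 0 h and 320, 432 and 378 CPM at 1 h, so on this relative scale the sums at 3 h lay above those at 1 h. Btg2 averaged 37.5 CPM at 1 h and 107 CPM at 3 h with triptolide alone. Their intron counts were low in both groups, 10, 19 and 28 reads with cycloheximide and 12, 17 and 18 reads with harringtonine. Scaled as the exon counts were, these made 4.24, 12.2 and 7.59 CPM against 7.87, 11.3 and 12.8 CPM. Junb, Ier2 and Ier5 had no intron count in any group used here, so they add nothing to these sums. Over all 48 genes the sums overlapped, from 2637 to 3569 CPM with cycloheximide and from 3295 to 5474 CPM with harringtonine. How many of the 48 passed depended on the libraries: 2 without harringtonine replicate 4 or with the 6 libraries fitted alone, 5 without cycloheximide replicate 4, 4 with spike-in scaling and 11 with the replicate block.

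Copies of the AU-rich motif TATTTAT (searched on the sense strand of the 3′ UTR) were found in 4 of the 8 genes and in 24 of the 48, and in 28.1% of all genes with an annotated coding sequence. The site of Tnf, which holds 8 copies, is shown beside those of the early genes Zfp36 (3 copies), Klf10 and Btg2 (1 copy each), with the motif in capitals.
Tnf (chr17:35199708-35199736, minus strand): cagcccccctcTATTTATatttgcactta
Zfp36 (chr7:28376966-28376994, minus strand): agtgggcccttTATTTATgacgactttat
Klf10 (chr15:38294920-38294948, minus strand): cagtgtcttttTATTTATaggagtttttc
Btg2 (chr1:134077249-134077277, minus strand): aaatgaagagcTATTTATacatgtttttt
Over the whole comparison the motif was present in 23.4% of genes higher with cycloheximide and in 25.6% of those lower.

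**Figure D4:**
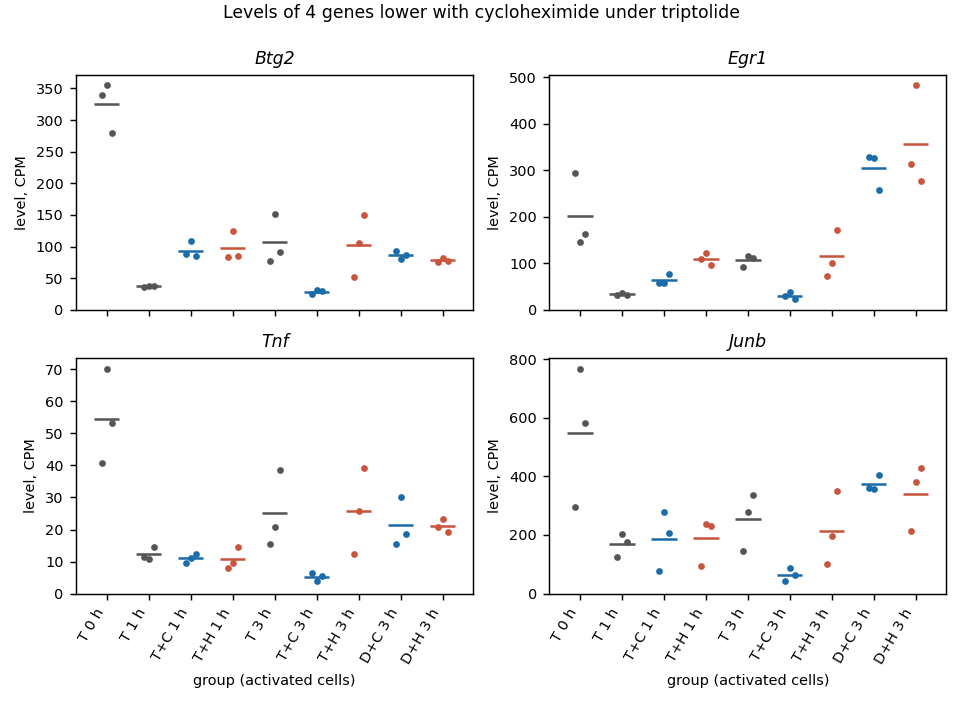
Points are libraries and bars are group means of CPM (linear axes) for Btg2, Egr1, Tnf and Junb in 9 groups of activated cells, where T is triptolide, D is DRB, C is cycloheximide and H is harringtonine. In each panel the 3 libraries with triptolide and cycloheximide at 3 h are the lowest or among the lowest, with Btg2 between 25.0 and 30.8 CPM.

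The same pair of inhibitors was compared in libraries that share none with the above: with DRB in place of triptolide, in resting cells, and after 1 h. Under DRB 257 genes (2.39%) were higher and 133 (1.24%) lower with cycloheximide, and in resting cells 214 (1.99%) were higher and 19 (0.177%) lower (edgeR adjusted p below 0.05). At 1 h 10 (0.0931%) were higher and none lower, with 462 genes at an unadjusted p below 0.05, and DESeq2 called 11 higher and 2 lower. The replicate block raised these to 673 and 512, 528 and 148, and 95 and 29. Each comparison called fewer when any replicate number was left out: 100 to 203 under DRB, 69 to 106 in resting cells and 0 to 3 at 1 h. Without replicate 4, 100 genes were called under DRB and none at 1 h (266 at an unadjusted p below 0.05). Under DRB the split moved with scaling, to 90 higher and 16 lower per spike-in molecule, 317 and 96 with RLE factors and 370 and 94 with library size alone. In resting cells it moved to 308 and 1 per spike-in molecule, 216 and 11 with RLE factors and 383 and 11 with library size alone.

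Most genes of the higher side kept their direction elsewhere. Of the 364, 355 were above 0 under DRB, 358 in resting cells and 346 at 1 h, where between 44.7% and 45.3% of all genes were above 0. Those also called higher numbered 178 under DRB (48.9% of the 364 and 69.3% of the 257), 143 in resting cells (39.3% and 66.8%) and 9 at 1 h (2.47% and 90.0%). There were 102 genes called higher in all 3 comparisons at 3 h, and 6 of them also at 1 h. Rpn1 differed by 3.11 under DRB, 2.73 in resting cells and 1.66 at 1 h, and Uqcrc1 by 2.15, 1.84 and 0.52. The 10 genes called at 1 h were Rpn1, Hspa5, Psma4, Cog6, Tm9sf2, Cnpy2, Rcn2, Ctsc, Slc39a1 and Trbv5, from 0.63 for Tm9sf2 to 1.72 for Trbv5.

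Of the 160 genes of the lower side, 153 were below 0 under DRB, 137 in resting cells and 145 at 1 h, where between 54.7% and 55.1% of all genes were below 0. In all, 68 (42.5% of the 160 and 51.1% of the 133) and 15 (9.38% and 78.9% of the 19) were also called lower under DRB and in resting cells. In resting cells 1 gene was called lower per spike-in molecule, so the count of 15 holds for the TMM scale. Gadd45gip1 differed by −2.34 under DRB and −2.33 in resting cells, and Mrps18c by −2.51 and −1.39. The median of the immediate early genes was 0.13 under DRB, 0.01 in resting cells and 0.01 at 1 h, and none of the 48 was called there. Under DRB the 8 genes summed to 1180, 1161 and 1117 CPM with cycloheximide and to 921, 1533 and 1183 CPM with harringtonine, so the groups overlapped. Their intron counts were 173, 57 and 102 reads with cycloheximide and 206, 150 and 123 reads with harringtonine. Scaled to CPM these were 128, 107 and 59.8 against 94.7, 116 and 65.3.

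**Figure D5:**
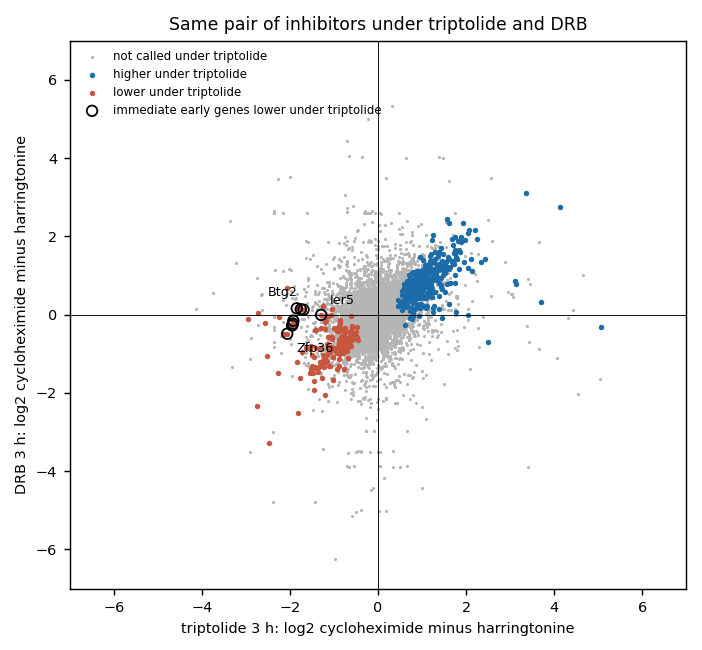
Each point is a gene, with its log2 difference between cycloheximide and harringtonine under triptolide on the x axis and under DRB on the y axis, in libraries that the 2 axes do not share. Blue and red points were called higher or lower under triptolide, and black rings mark the 8 immediate early genes chosen by being called lower there. On the y axis these run from −0.49 (Zfp36) to 0.16 (Btg2), with 5 below 0. Of the 8, only Btg2 was called in the test of the difference between triptolide and DRB.

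Where the difference between the inhibitors was itself tested, 13 genes (0.121%) differed between 3 h and 1 h of triptolide, 1 gene (0.00931%) between triptolide and DRB, and 1 gene (0.00931%) between activated and resting cells. That gene was Btg2 in both cases. Its difference was −1.85 under triptolide at 3 h, 0.16 under DRB, 0.43 in resting cells and −0.06 at 1 h. The differences of differences, in that order, were −2.01 ± 0.36 (SE, edgeR adjusted p = 0.00296), −2.28 ± 0.38 (0.000478) and −1.79 ± 0.35 (0.0155). Without replicate 4 none of these passed (adjusted p = 1, 1 and 0.63), and none passed with spike-in scaling (1, 0.177 and 0.613) or coding counts (0.835, 1 and 0.221). Egr1 differed from DRB by −1.72 and Junb by −1.96 with the replicate block (edgeR adjusted p = 0.0437 for each), and neither was called in the same fit without it (0.1 and 1). Both were called without the filter on low counts (0.00418 and 0.000585). Egr1 was also called by DESeq2 (0.0408) and without replicate 3 (0.0343). Between 3 h and 1 h, Uqcrc1 (1.68 ± 0.34), Brk1 (1.44 ± 0.29) and Nubp1 (1.43 ± 0.30), which encodes an iron-sulphur cluster assembly factor, had larger rises at 3 h (edgeR adjusted p = 0.0155 each). The count was 0 when any 1 replicate number was left out (294 to 393 genes at an unadjusted p below 0.05), 0 with spike-in scaling (532), 23 with DESeq2 and 93 with the replicate block.

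Values against triptolide alone at 3 h place each inhibitor, although they share the triptolide libraries and are given side by side only. Genes higher with cycloheximide had a median log2 difference from triptolide alone of 0.51 with cycloheximide and −0.57 with harringtonine, and 277 and 88 of the 364 lay above triptolide alone. Rpn1 (−0.46 and −3.82), Brk1 (−0.26 and −2.13) and Pld3 (−0.12 and −2.08) were near triptolide alone with cycloheximide and far below it with harringtonine, while Vamp8 (2.19 and −0.06) was far above it with cycloheximide. Genes lower with cycloheximide had medians of 0.08 and 1.104, with 85 and 140 of the 160 above triptolide alone. Gadd45gip1 (0.69 and 3.43) and Champ1 (0.19 and 1.91) followed that pattern. Btg2 (−1.86 and −0.02), Egr1 (−1.81 and 0.12), Tnf (−2.22 and 0.03) and Junb (−1.98 and −0.23) had the reverse, with cycloheximide below triptolide alone. The medians over all genes were −0.08 and −0.07. Which genes lie above triptolide alone depends on the scale: per spike-in molecule the medians over all genes were 0.62 and 0.38. On that scale the genes higher with cycloheximide had medians of 1.21 and −0.13 (349 and 157 above), and those lower had 0.80 and 1.62 (127 and 153 above). Rpn1 was then at 0.16 and −3.45, and Btg2 at −1.38 and 0.20.

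Called genes were more frequent among mRNAs that fell faster under triptolide alone between 0 h and 3 h. In the fifth of genes with the steepest fall (median log2 change −1.66 relative to other mRNAs, 2149 genes), 5.12% were higher and 3.72% lower with cycloheximide. In the fifth with the least fall (median 1.26, 2148 genes) the shares were 0.838% and 0.0931%. In between, the shares higher were 4.24%, 4.05% and 2.7%, and the shares lower were 2.05%, 1.16% and 0.419%. These are descriptions, since genes share libraries and the CPM scale is relative: per spike-in molecule the median gene fell by 1.68 on the log2 scale over the 3 h.

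The share of genes with a hydrophobic start differed between the sides. A window of 12 residues with a mean hydropathy of at least 2.0 within the first 40 residues was encoded by 87 of 359 genes higher with cycloheximide (24.2%), by 6 of 160 genes lower (3.75%) and by 1436 of all 10502 genes with a coding sequence (13.7%). Genes with such a start were called higher in 6.06% of cases and lower in 0.418%, against 3% and 1.7% of the other 9066 genes. Their median log2 difference was 0.08 against −0.07 for the others, and it was 0.10 against −0.08 under DRB, 0.04 against −0.07 in resting cells and 0.04 against −0.04 at 1 h. With the threshold set at 2.5 the shares were 10.9%, 0.625% and 6.69% of the higher genes, the lower genes and all genes, and with 1.5 they were 33.4%, 10.6% and 22.1%. Most genes of the higher side, Brk1, Psma5, Uqcrc1 and Hspa9 among them, have no such start. Coding sequences of called genes were shorter than those of all genes, with a median of 386 codons on the higher side, 364 on the lower side and 467 over all genes.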

How the data were processed

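Per the labels' protocols, RNA was extracted from equal cell numbers; the table holds ERCC spike-in counts. Per the submitters' processing notes, reads were handled with TopHat2 2.0.13, Bowtie 1.1.1.0 and HTSeq on mm10; the settings and annotation are not given in the sources used here. The authors deposited 1 table of raw read counts per gene for exons, introns, coding sequence and UTRs, 92 ERCC RNAs and 5 rows of unassigned reads, which were left out (84.82% to 93.53% of reads in the 6 libraries). Another column per library with another overlap mode for coding sequence was not used.

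Exon counts of the whole series (35 groups of 3) were fitted with edgeR 4.0.16 in R 4.3.3 (filterByExpr, TMM, robust quasi-likelihood F test, Benjamini-Hochberg over 10741 genes, called below 0.05), which was tested on simulated data. Depth was 1489579 to 3932393 exon counts per library. No pair of replicates agreed within sampling noise (chi-square per degree of freedom 5.73 to 20.0). Same-numbered libraries of both groups deviated together (correlations 0.465, 0.458 and 0.417, against −0.316 to −0.111 for other numbers). Deviations were taken from group means of 3 libraries, so positive values for same numbers bring negative ones for the others. The block treats the numbers as pairs, whereas edgeR p-values given without mention of it are from the fit without pairing. Blocked values stand beside results that they change. Named genes are the 12 largest rises and falls among called genes with a mean of at least 10 CPM in 1 group and ranges that do not overlap, without predicted genes and receptor segments (1 of the falls is not reported here); in lists, the 2 members of smallest p and the 2 most abundant, and where the text gives symbols of other called members they were added after their values were seen. The SE beside an edgeR log2 difference is its absolute value divided by the square root of the F statistic of the test. Library ratios were compared with exact permutation tests. Coordinates, coding sequences and UTRs are from GENCODE vM21. Alternatives were DESeq2 1.42.0, RLE factors, library size alone, ERCC scaling, other filters, the block, coding counts, fewer libraries in the fit and each library left out. The comparison and the gene lists were chosen with earlier results of these data known. Members of near-identical families (ribosomal proteins, Zfp genes) may share reads, so their counts are uncertain.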

Additional observations from a re-analysis of the deposited data

Results flagged for a closer look

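A test of the difference between the inhibitors across times, transcription inhibitors or cell states singled out the genes below, with edgeR adjusted p-values under 0.05. Between 3 h and 1 h of triptolide, the log2 difference between cycloheximide and harringtonine was larger at 3 h for Uqcrc1 (1.68), Emc6 (1.605), Hspa9 (1.58), Brk1 (1.44), Nubp1 (1.43), Pgam1 (1.28), the ER chaperone gene Dnajb11 (1.25) and the lactate dehydrogenase gene Ldha (1.14). It was more negative at 3 h for the phosphatase gene Dusp2 (−2.61), Tnf (−2.27), the interferon regulatory gene Irf1 (−1.80) and Btg2 (−1.79). Btg2 alone also differed from DRB (−2.01) and from resting cells (−2.28). The remaining gene of the 13, the predicted 9530068E07Rik, had a larger difference at 3 h by 1.16. Leaving out any 1 replicate number, or scaling to the spike-ins, ended all calls between 3 h and 1 h. The calls of Btg2 against DRB and resting cells ended without replicate 4, with spike-in scaling and with coding counts. With 3 libraries per group no single library was tested for standing apart.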

How the results depend on the processing

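Against the 524 genes called at 3 h of triptolide, 1216 were called with the replicate block, 208 with the 6 libraries alone and 273 to 424 with 1 library left out, and the other settings stayed within 1.5 times. At 1 h (10 genes) spike-in scaling called 2, no filter 19, the block 124, coding counts 6 and the left-out replicates 0 to 3. Under DRB (390) spike-in scaling called 106, the block 1185, coding counts 254 and the left-out replicates 100, 127 and 203. In resting cells (233) library size alone called 394, the block 676, coding counts 148 and the left-out replicates 69, 71 and 106. Of genes that differed between 3 h and 1 h (13), RLE factors called 6, spike-in scaling 0 (532 at an unadjusted p below 0.05), no filter 20, the block 93, coding counts 4, DESeq2 23 and the left-out replicates 0 to 0. From DRB (1) spike-in scaling and coding counts called 0, no filter 13, the block 4, DESeq2 2 and the left-out replicates 0 to 2, and from resting cells (1) spike-in scaling and coding counts called 0, no filter 3, the block 2 and the left-out replicates 0 to 1. The cause was not tested, except that left-out fits have fewer samples. Of 384 values for the 24 named genes over 16 settings, 370 kept their direction and call, 14 kept the direction without the call and 0 reversed, and the block changed no named call. Of 656 list medians, 539 moved by less than the spread and 117 by more. Depth limits genes of low level, and most reads aligned to more than 1 place.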
